A study of Homo sapiens with 8 samples.

Results

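After 1 h in sorbitol, 446 accessible regions (peaks) at the ends of human genes carried at least 2 times their vehicle signal in HEK293 cells. They were 1.83% of the 24414 peaks at autosomal gene ends and 6.28% of the 7107 peaks anywhere on the autosomes that met the same conditions, in a table of 129536 peaks. A member had to lie on chromosomes 1 to 22 and within 1 kb of the first or last base of a RefSeq gene. All 4 sorbitol values had to exceed all 4 vehicle values in CPM (a peak's count divided by the library's total over all peaks and multiplied by 1e+06), and the mean had to be at least 2 times higher. These values chose the members, so their levels and fold changes are given as a description with no test.

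The libraries came from Omni-ATAC-seq, in which a transposase cuts accessible DNA of isolated nuclei and attaches sequencing adapters. The cells were HEK293, a human embryonic kidney line, and per the genotype label they carried eGFP-YAP, the Hippo pathway coactivator YAP fused to a green fluorescent protein, although the sample titles name only HEK293. The study set 4 vehicle libraries, labelled 0 h, against 4 libraries made after 1 h of 0.2 M sorbitol. Sorbitol is a sugar alcohol that raises the osmolarity outside the cell, and the series text places 1 h without serum before it. By these labels, the sorbitol and the hour spent in it cannot be told apart. Nothing in the labels says whether the 4 libraries of a group came from separate cultures, so the spread between them may be technical.

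The start of an active gene is usually the most accessible part of it, because transcription factors and RNA polymerase keep nucleosomes off the promoter, and in most housekeeping genes this stretch is rich in CpG. The far end of a gene is less often open, although enhancers and termination regions can lie there. Hypertonic medium draws water out of cells, shrinks the nucleus and crowds its content, and it activates the transcription factor NFAT5, whose binding sites hold the core of the NFAT family.

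Most members overlapped no RefSeq promoter window, and 6 promoters are shown from the minority that did. The 4 listed before the interferon genes belong to the members with the highest sorbitol CPM among those covering at least 150 bases of a RefSeq promoter window (250 bases before to 50 bases after the start). IFNA21 and IFNA5 stand for the largest cluster of members and were added after their values were seen. Each line gives the 250 bases before the start in GRCh38.p14, written 5′ to 3′ on the gene's strand. Capitals mark matches on either strand to the TATA box TATAAA, the CCAAT box, the GC box GGGCGG, which binds proteins of the SP family, and the core TGGAAA of NFAT sites.
PDK4, chr7:95596517-95596766, minus strand: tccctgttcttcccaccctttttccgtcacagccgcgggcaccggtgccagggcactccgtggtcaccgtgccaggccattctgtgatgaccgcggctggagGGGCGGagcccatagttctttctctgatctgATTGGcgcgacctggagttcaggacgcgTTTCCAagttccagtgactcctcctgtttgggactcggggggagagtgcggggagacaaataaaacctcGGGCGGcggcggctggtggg
ATP12A, chr13:24680158-24680407, plus strand: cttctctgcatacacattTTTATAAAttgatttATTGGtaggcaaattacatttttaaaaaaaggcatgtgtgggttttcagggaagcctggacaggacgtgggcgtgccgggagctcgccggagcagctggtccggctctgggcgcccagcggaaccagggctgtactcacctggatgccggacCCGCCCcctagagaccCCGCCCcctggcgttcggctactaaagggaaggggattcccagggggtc
ELF3, chr1:202010337-202010586, plus strand: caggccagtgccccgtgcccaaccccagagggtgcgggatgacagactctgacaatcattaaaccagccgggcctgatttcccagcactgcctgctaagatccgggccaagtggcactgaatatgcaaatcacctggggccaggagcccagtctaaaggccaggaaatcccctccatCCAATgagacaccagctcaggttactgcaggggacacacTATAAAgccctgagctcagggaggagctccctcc
LOC124903287, chr14:22977577-22977826, plus strand: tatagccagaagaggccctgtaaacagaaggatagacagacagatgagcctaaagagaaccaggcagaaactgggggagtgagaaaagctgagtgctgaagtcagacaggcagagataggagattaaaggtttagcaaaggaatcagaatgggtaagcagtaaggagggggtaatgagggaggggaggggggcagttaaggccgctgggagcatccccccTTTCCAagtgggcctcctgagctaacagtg
IFNA21, chr9:21166661-21166910, minus strand: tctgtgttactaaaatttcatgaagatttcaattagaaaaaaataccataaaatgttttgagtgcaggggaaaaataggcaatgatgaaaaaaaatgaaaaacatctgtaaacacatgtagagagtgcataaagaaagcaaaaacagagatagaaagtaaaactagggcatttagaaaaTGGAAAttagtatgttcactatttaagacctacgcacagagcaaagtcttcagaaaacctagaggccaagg
IFNA5, chr9:21305314-21305563, minus strand: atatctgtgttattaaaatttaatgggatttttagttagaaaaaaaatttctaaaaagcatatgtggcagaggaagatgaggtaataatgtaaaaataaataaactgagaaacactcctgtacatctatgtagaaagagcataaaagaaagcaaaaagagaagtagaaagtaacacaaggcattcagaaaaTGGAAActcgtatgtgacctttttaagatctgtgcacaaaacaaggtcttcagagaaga

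PDK4, a kinase that inhibits the pyruvate dehydrogenase complex, had a promoter of 62.8% GC with 19 CpG and matches to the GC box, CCAAT box and NFAT core. ATP12A, the catalytic subunit of a proton-potassium pump, had 13 CpG, 2 GC boxes and overlapping TATA matches far upstream, near the left edge of the printed stretch. ELF3, an epithelial transcription factor of the ETS family, had 4 CpG and a TATA match close to its start. The promoters of the non-coding gene LOC124903287 and of both interferon genes had 1 CpG each and a single marked match, to the NFAT core. The interferon promoters held 32.0% GC (IFNA21) and 30.4% GC (IFNA5). These matches are letters in a window and not measured binding.

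Library totals over all peaks were 14757015 to 19831471 counts in vehicle and 11522266 to 14355727 in sorbitol. With edgeR's quasi-likelihood test and a Benjamini-Hochberg adjusted p under 0.05, 16% of 129487 tested peaks were higher and 13.1% lower after sorbitol, whereas at autosomal gene ends 8.75% were higher and 33.1% lower. Gene-end peaks held 50.2% ± 0.845 (SD, n = 4) of all counts in vehicle and 46.4% ± 1.25 in sorbitol. Vehicle 4 was the highest vehicle library at 202 of the 446 members and sorbitol 4 the lowest sorbitol library at 162. On peaks of unplaced contigs, too, vehicle 4 lay above the other vehicle libraries and sorbitol 4 below the other sorbitol libraries. Without vehicle 4 the rule gave 604 members, and 669 without both libraries. Of the genes listed as open or expressed in HEK293, 8 of 10 had a gene-end peak, up to 124.5 CPM. Among markers of blood, liver and skin cells 3 of 12 had one, up to 22.5 CPM. The lists thus differed in how many genes had a peak, but the median was 14.9 CPM over the 11 HEK293 peaks and 18.9 CPM over the 3 others.

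Most members were weak and narrow peaks. Their mean vehicle signal ran from 0.290 to 30.1 CPM with a median of 0.900, where all gene-end peaks had a median of 11.5. In sorbitol the members ran from 0.999 to 63.7 CPM with a median of 2.19, against 10.7. The ratio of the means was 2.00 to 6.25, with a median of 2.40 and quartiles of 2.18 and 2.72. At least 3 times was reached by 68 members, at least 4 times by 13 and at least 5 times by 3. In 33 members the lowest sorbitol value was at least 2 times the highest vehicle value.

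A median member had 13 to 17 counts in a vehicle library and 27 to 30 in a sorbitol library. Exact Poisson intervals (95%) are 6.92 to 22.2 for 13 counts and 17.8 to 39.3 for 27, and they cover counting error only. Over the 8 libraries 335 members averaged under 30 counts and 36 averaged at least 50. Widths ran from 200 to 1606 bp with a median of 270, against 765 for all gene-end peaks, and 42.6% of members were 250 bp or narrower, against 8.27%. Even in sorbitol only 8 members exceeded the median of all gene-end peaks.

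**Figure D1:**
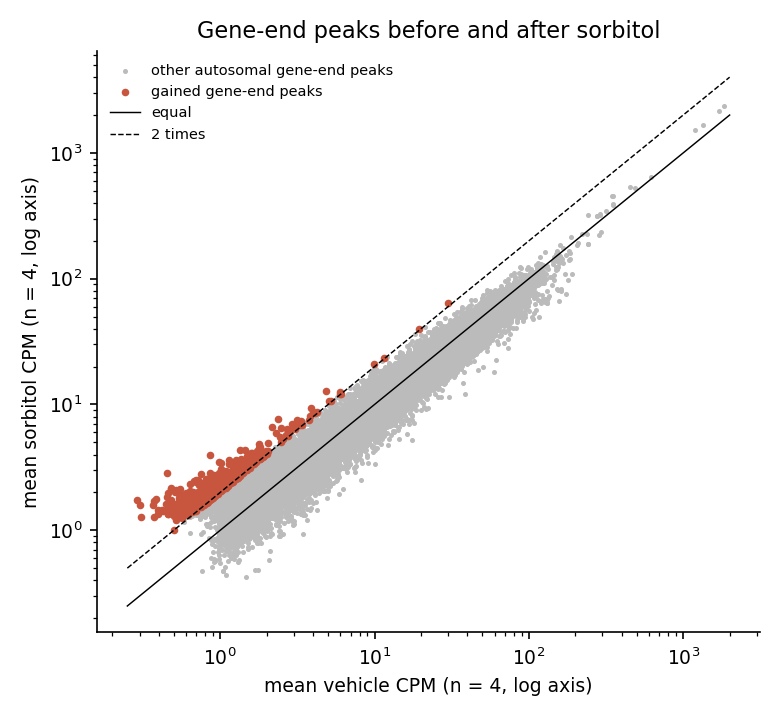
Mean vehicle CPM (x, log axis) against mean sorbitol CPM (y, log axis) of the 24414 autosomal gene-end peaks, each mean over 4 libraries, with gained peaks in red, a solid line at equal values and a dashed line at 2 times. The 446 gained peaks sit at the weak end of the cloud, with a median of 0.900 CPM in vehicle, and only a few reach beyond 10 CPM.

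Summed over the 446 members, vehicle libraries held 545, 526, 561 and 645 CPM and sorbitol libraries 1406, 1304, 1406 and 1283 CPM. The means were 569 ± 52.3 and 1350 ± 65.4 (SD, n = 4). All 4 sorbitol sums lay above all 4 vehicle sums, as the rule requires of each member. The members' counts come from bulk nuclei, so more cells with an open site and a more open site in each cell cannot be told apart. In the edgeR fit 444 of 446 members passed the filter on low counts and 443 were called higher, which follows from the rule, beside the 8.75% of all gene-end peaks. Their median log2 fold change was 1.18 (range 0.89 to 2.51), where all gene-end peaks had -0.17.

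**Figure D2:**
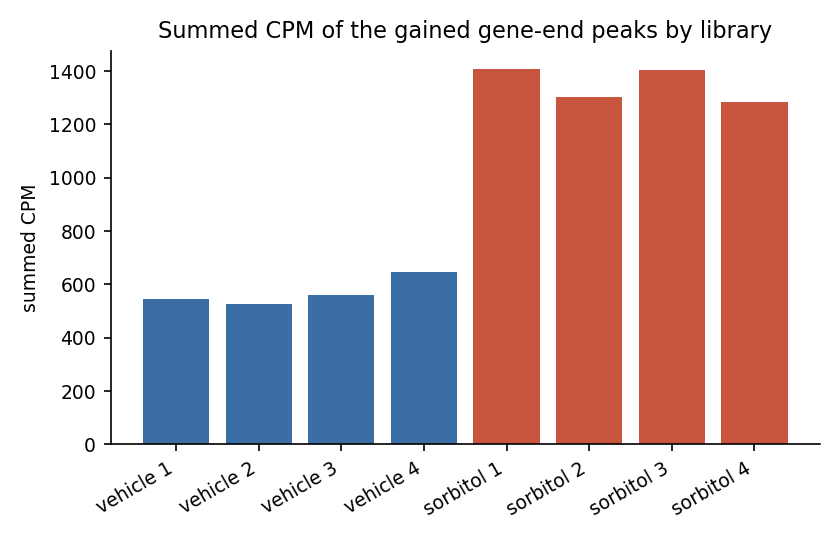
Summed CPM of the 446 gained gene-end peaks in each of the 8 libraries, vehicle in blue and sorbitol in red. Vehicle 4, at 645 CPM, is the highest vehicle library and sorbitol 4, at 1283 CPM, the lowest sorbitol library.

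The strongest member lay inside LOC646652, a transcribed pseudogene on chromosome 5, at chr5:34191924-34193529, 675 bp from the gene's right end. Its vehicle values were 29.1, 24.3, 28.4 and 38.7 CPM and its sorbitol values 71.0, 58.2, 66.7 and 59.0 CPM, over a peak 1606 bp wide. The lowest sorbitol library stood well clear of vehicle 4, the highest vehicle one. A second member lay 239 bp inside the other end of the gene, at chr5:34189820-34190078, and went from 6.02 ± 1.51 to 12.2 ± 0.744 CPM (SD, n = 4). The 1 further peak between them also met the fold and non-overlap conditions but was over 1 kb from either end, with a log2 fold change of 1.03.

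At the protein-coding genes, the strongest member covered the start of PDK4 and of its antisense neighbour PDK4-AS1 (chr7:95595970-95597126), the promoter printed above with GC boxes. PDK4 is known to be induced by fasting and by a switch from glucose to fatty acid use. Its vehicle values were 18.1, 20.8, 19.5 and 19.4 CPM and its sorbitol values 43.8, 33.0, 38.1 and 43.6 CPM. The vehicle libraries were close together, and the sorbitol libraries spread more widely, all of them higher. The means were 19.4 ± 1.07 and 39.6 ± 5.16 CPM, with a log2 fold change of 0.94 (SE 0.09).

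PERP, a membrane protein of desmosomes, had its member across the gene's end rather than its start (chr6:138088175-138088846). Values were 13.0, 10.3, 11 and 11.8 CPM in vehicle and 25.1, 22.1, 21.9 and 23.8 CPM in sorbitol. The lowest sorbitol library was far above the highest vehicle one, and no library stood apart. FJX1, a secreted kinase-like protein and a target of YAP, also had its member beyond its end, 480 bp past the last base (chr11:35621345-35621992). Its values were 5.19, 6.38, 6.25 and 6.10 CPM in vehicle and 12.5, 13.5, 11.8 and 12.7 CPM in sorbitol, without overlap.

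CSRNP3, a nuclear protein of the cysteine and serine rich family, had its member 346 bp inside the start (chr2:165470044-165470804). It read 5.45, 4.37, 4.94 and 4.61 CPM in vehicle and 10.5, 14.7, 12.5 and 13.1 CPM in sorbitol. That is a ratio of 2.62 and the largest among the 8 members with the highest sorbitol CPM. PLCD1, a phospholipase C that releases inositol phosphates, had its member across the right end (chr3:38029497-38029995; strand not given in the sequence table). It read 5.06, 6.09, 6.25 and 6.37 CPM in vehicle and 11.8, 12.7, 12.5 and 11.6 CPM in sorbitol, again without overlap.

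**Figure D3:**
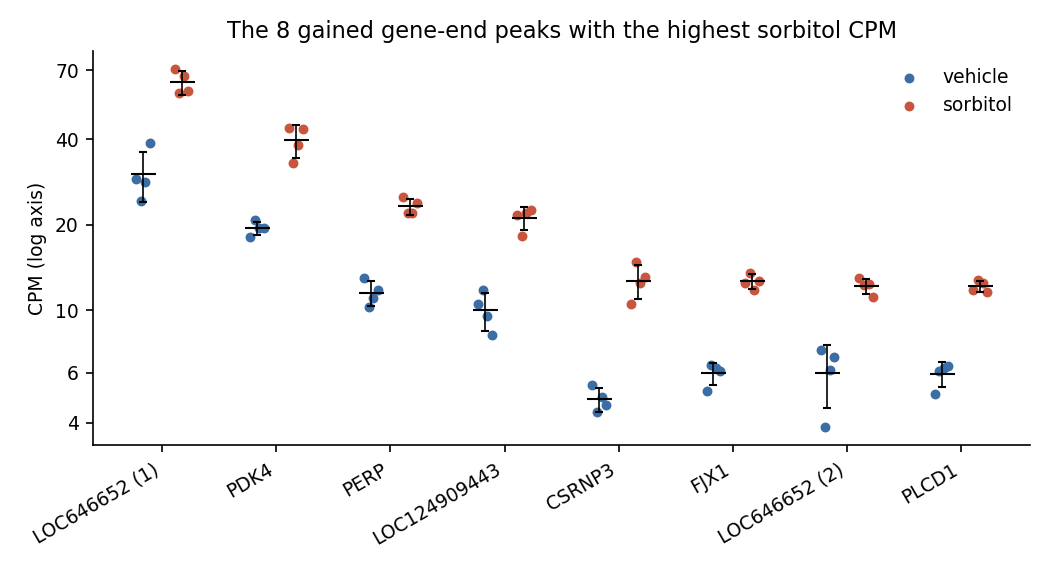
CPM (log axis) of the 8 gained gene-end peaks with the highest mean sorbitol CPM, each dot a library (vehicle blue, sorbitol red) and the bars the mean ± SD of 4 libraries. LOC646652 (1) and (2) are its 2 peaks; they and LOC124909443 are non-coding. In each peak the 4 sorbitol libraries lie above the 4 vehicle libraries, as the rule required.

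The widest proportional gains among members averaging at least 50 counts were led by LOC107986391, an uncharacterised long non-coding RNA (lncRNA), with its member 557 bp inside its end (chr5:124961715-124962345). Its vehicle values were 2.50, 2.41, 2.37 and 2.24 CPM and its sorbitol values 8.42, 7.09, 8.41 and 6.83 CPM, a ratio of 3.23. ACTBP14, a pseudogene of beta-actin, was covered over most of its length (chr10:69022905-69023888). It read 2.10, 2.36, 2.07 and 2.10 CPM in vehicle and 7.46, 6.85, 7.11 and 4.95 CPM in sorbitol, a ratio of 3.06. Sorbitol 4 was the lowest sorbitol library in both. The next were CSRNP3, CCN1 (2.61), the second peak of LOC124900996 (2.59) and the lncRNA LOC124900733 (2.43).

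Among all members, the largest ratio belonged to NAP1L1P1, a pseudogene of a histone chaperone, chosen here after its values were seen. It read 0.328, 0.402, 0.605 and 0.474 CPM in vehicle and 3.38, 2.79, 3.12 and 2.02 CPM in sorbitol, a ratio of 6.25 on an average of 21.3 counts. RTEL1P1 (5.98) and LOC124906383 (5.29) followed, both pseudogenes, on averages of 13.1 and 12.3 counts. These highest ratios rest on few counts. The highest ratio at a protein-coding gene, also picked after the values were seen, was at the start of TRIM72, a muscle protein of membrane repair, which read 0.920, 0.690, 0.857 and 0.949 CPM in vehicle and 4.17, 3.19, 4.25 and 4.18 CPM in sorbitol (4.62-fold).

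Other protein-coding members, also chosen after their values were seen, lay at genes of varied function. CDKN1B, an inhibitor of cyclin-dependent kinases, had its member 746 bp inside its end and read 2.36, 3.62, 3.38 and 2.44 CPM in vehicle and 8.07, 6.61, 4.68 and 6.48 CPM in sorbitol. ALDH1A1, which makes retinoic acid from retinaldehyde, had its member across the start and read 1.12, 0.805, 0.706 and 1.42 CPM in vehicle and 3.99, 2.79, 3.81 and 3.20 CPM in sorbitol. The groups did not overlap, and sorbitol 3 was the lowest of its group at CDKN1B but not at ALDH1A1. The cytokine genes IL6 and IL5 had weak members, 785 bp past the end of IL6 (0.576 ± 0.308 to 1.62 ± 0.342 CPM) and 863 bp outside IL5 (0.916 ± 0.429 to 2.34 ± 0.448 CPM).

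At the threshold, the members with the smallest ratios were ACTG1P19 (0.499 to 0.999 CPM), LYST (1.20 to 2.41 CPM) and LEFTY3P (1.30 to 2.61 CPM). The non-overlapping gene-end peaks just below it included those at NDUFA5P10 (2.56 to 5.12 CPM) and CFAP161 (1.07 to 2.13 CPM).

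The nearest gene was an lncRNA for 164 members (36.8%), protein-coding for 132 (29.6%), a pseudogene for 122 (27.4%) and a transcribed pseudogene for 15 (3.36%). Over all gene-end peaks these shares were 25.7%, 61.0%, 7.09% and 2.08%. Pseudogenes of either kind therefore made up 30.7% of members against 9.18% of all gene-end peaks. The rest were 8 at microRNA genes, 2 at small nuclear RNA genes, 1 at a small nucleolar RNA gene, 1 at an immunoglobulin V segment and 1 at a T cell receptor V segment pseudogene. None of the 284 peaks nearest a transfer RNA gene was a member. The protein-coding share depended on the limits of the rule: it was 50% among the 36 members averaging at least 50 counts and 16.2% among the 68 with a ratio of at least 3. Strong gene-end peaks in general were more often protein-coding. By deciles of mean count, 809 of 2442 were so in decile 1 (the weakest), 1229 of 2442 in decile 4 and 1927 of 2442 in decile 10.

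Read the other way, 7.05% of pseudogene peaks were gained, 2.95% at transcribed pseudogenes, 2.61% at lncRNA genes, 2.48% at microRNA genes and 0.886% at protein-coding genes, where 1.83% of all gene-end peaks were. Peak strength differed alongside. Ordered by mean count, the weakest decile of gene-end peaks held 296 members (12.1% of those peaks), the next 102 and the next 22, so these 3 deciles held 420 of the 446. Within these weak peaks 10.2% were gained at pseudogenes (116 of 1140), 5.68% at lncRNA genes (158 of 2781) and 4.15% at protein-coding genes (120 of 2889), against 5.73% of all 7324. The order of the 3 biotypes was thus the same among weak peaks. The median ratio of the members, which the rule limits from below, was 2.50 for pseudogenes, 2.43 for lncRNA genes and 2.36 for protein-coding genes.

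**Figure D4:**
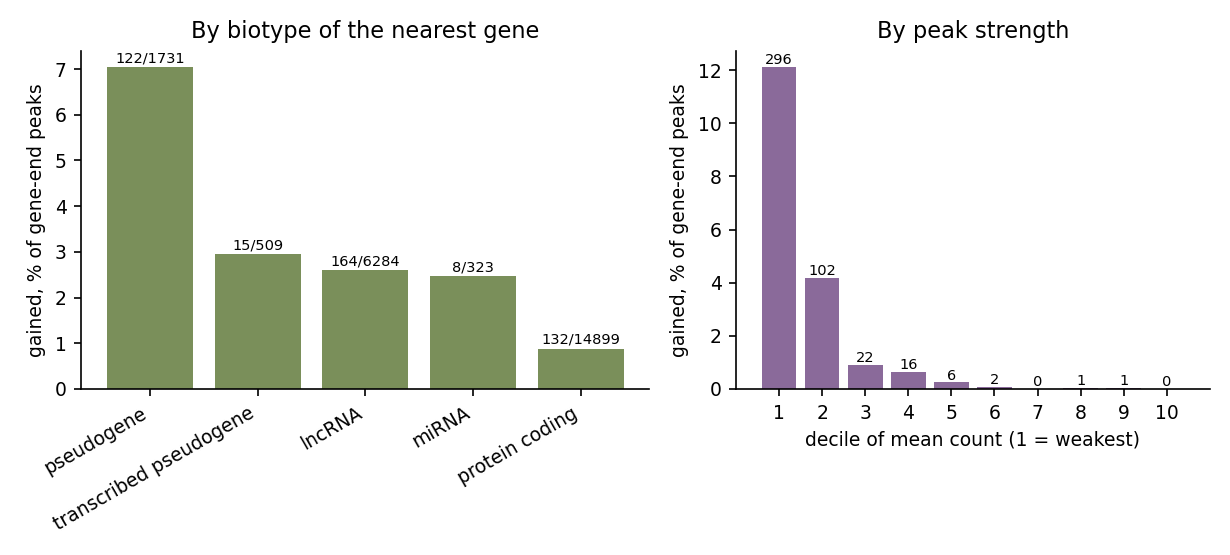
Percent of autosomal gene-end peaks that were gained, on the left by the biotype of the nearest gene (gained/all above each bar) and on the right by deciles of mean count over 8 libraries (number gained above each bar). Pseudogene peaks reach 7.05% and protein-coding ones 0.886%, and the weakest decile reaches 12.1%.

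Single members illustrate each biotype. The strongest at a plain pseudogene was 910 bp from MAF1P1 (4.25 ± 0.811 to 8.78 ± 0.758 CPM; SD, n = 4). IGHV3-33, an immunoglobulin heavy chain V segment, had a member across its edge (1.12 ± 0.216 to 2.43 ± 0.408 CPM). TRBV22OR9-2, an orphan T cell receptor V segment, went from 0.573 ± 0.269 to 1.77 ± 0.226 CPM. Functional V segments are used by lymphocytes, and both peaks were among the weak ones. The small nucleolar RNA gene LOC124906177 reached 1.88 ± 0.259 CPM in sorbitol and the small nuclear RNA gene LOC124901224 reached 2.08 ± 0.240 CPM, both without overlap with vehicle, although LOC124901224 was no longer called higher without vehicle 1 (log2 fold change 0.78).

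The microRNA genes matched RefSeq mature sequences in 5 cases, with 7 mature microRNAs and 7 different seeds, so none shared a seed. A microRNA pairs with its targets through the seed, bases 2 to 8, in capitals here. The 3 shown are the strongest member (hsa-miR-3668), the next strongest of the matched (hsa-miR-4437), and the only matched 1 whose peak covers the mature sequence (hsa-miR-133b), the last 2 chosen after their values were seen.
hsa-miR-3668: aAUGUAGAgauugaucaaaau
hsa-miR-4437: uGGGCUCAggguacaaagguu
hsa-miR-133b: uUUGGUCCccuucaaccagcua

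The peak by MIR3668 lay 453 bp outside the gene (chr6:140205779-140206485) and read 1.77, 2.59, 2.47 and 3.05 CPM in vehicle and 6.25, 4.46, 4.68 and 4.74 CPM in sorbitol. Sorbitol 1 was the highest, and the groups did not overlap. At MIR4437 the peak covered an edge of the hairpin gene (1.57 ± 0.473 to 3.4 ± 0.588 CPM). At MIR133B, a microRNA gene of muscle, the peak was weak, with 0.328, 0.920, 0.555 and 0.813 CPM in vehicle and 1.30, 1.91, 1.39 and 1.53 CPM in sorbitol.

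RefSeq strand was at hand for the nearest gene of 212 members, of which 115 (54.2%) lay nearest the start and 97 (45.8%) nearest the end. Among all 16335 gene-end peaks with a strand, 79.8% lay at starts and 20.2% at ends. At protein-coding genes 57 members lay at starts and 51 at ends, where 83.6% of all such peaks were at starts. At lncRNA genes 58 lay at starts and 46 at ends, where 69.6% of all were at starts. So 0.882% of start peaks and 2.94% of end peaks were gained. Among the weak peaks the shares were 4.73% of starts (107 of 2261) and 5.15% of ends (91 of 1767), which is closer together. Lost peaks, 217 gene-end peaks meeting the mirror-image rule, had 51.2% at starts.

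Fewer members reached the very end of a gene. They were also narrower, at a median of 270 bp against 765, and a narrow peak covers less sequence. The part of width in the next shares was not tested. Only 84 (18.8%) overlapped its first or last base, against 59.3% of all gene-end peaks, while 195 lay 1 to 500 bp away and 167 farther. More than 1 gene lay within 1 kb of 25 members (5.61%, against 26.4%). Members at starts had their midpoint inside the gene in 57 cases and outside it in 58. In all, 464 genes had a member within 1 kb.

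RefSeq promoter windows name only 27303 of 59679 genes. None was given for the nearest gene of 234 of the 446 members and of 8079 of the 24414 gene-end peaks. The parts of this and of peak strength in the next comparison were not tested. A window was overlapped by 44 members (9.87%), against 44.6% of all gene-end peaks, and they touched 48 windows. These windows had a median of 54.5% GC and 6 CpG, compared with 66.0% and 27 in the 16013 windows overlapped by other gene-end peaks, and with 49.3% and 4 in the 17664 windows that no gene-end peak overlapped. The printed interferon promoters are at the low end of this range and PDK4 is nearer to the ordinary ones. The GC box was present in 27.1% of member windows, 70.7% of the other peak windows and 21.8% of windows without a peak. TATAAA was found in 8 member windows (16.7%), against 5.48% and 17.1%. The NFAT core TGGAAA, printed in capitals in PDK4, LOC124903287, IFNA21 and IFNA5, was found in 16 (33.3%), against 14.6% and 26.3%. On these 3 motifs the member windows stood nearer to windows without a peak, whose GC content was also nearer, but this did not hold for every motif.

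The remaining motifs, again searched on both strands of the whole 300-base window, were CCAAT in 41.7% of member windows (33.9% of the other peak windows and 34.7% of windows without a peak), the TEAD motif GGAATG in 10.4% (10.8% and 17%) and the AP-1 motif TGANTCA in 4.17% (4.70% and 10.4%). The ETS motif CCGGAAG was in 2.08% (17.7% and 3.63%) and the CRE TGACGTCA in none (3.19% and 0.679%). For the TEAD and AP-1 motifs the member windows were nearer to the other peak windows, but this rests on only 5 and 2 of the 48 member windows. Shares over all 33725 autosomal windows were 11.6% for TATAAA, 45.0% for the GC box, 20.8% for TGGAAA, 34.4% for CCAAT, 14% for GGAATG, 7.67% for TGANTCA, 10.3% for CCGGAAG and 1.87% for the CRE. The motifs differ in length and base content, so their shares are not compared with each other.

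The 3 other printed promoters belonged to weaker members than PDK4. ATP12A (chr13:24680259-24680922) read 2.63, 3.91, 2.62 and 3.39 CPM in vehicle and 7.90, 8.12, 5.81 and 8.01 CPM in sorbitol. ELF3 and its antisense gene (chr1:202010361-202010824) read 2.89, 2.87, 3.53 and 3.52 CPM in vehicle and 6.42, 6.85, 7.37 and 6.83 CPM in sorbitol. Neither pair of groups overlapped, and ELF3 was the tighter in sorbitol. LOC124903287 (chr14:22977695-22978006) read 1.64, 1.67, 1.61 and 2.24 CPM in vehicle and 5.38, 3.5, 4.86 and 5.57 CPM in sorbitol.

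Most members stood alone. Joining members no more than 100 kb apart left 385 single and 26 clusters with 61 members (13.7%), of which 19 held 2, 6 held 3 and 1 held 5. In 8 of the clusters all members had the same nearest gene. Gene-end peaks within 100 kb of a member were members in 86 of 1411 ordered pairs (6.09%), and in 32 of 213 (15%) within 10 kb and 322 of 10762 (2.99%) within 1 Mb, beside 1.83% of all gene-end peaks. The share fell with distance. With a ratio of at least 3 in the rule, 2.99% of 201 pairs within 100 kb ended on a member, beside 0.279% of all gene-end peaks. Restricted to weak peaks, 70 of 479 pairs within 100 kb (14.6%) ended on a member, beside 5.73%.

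The largest cluster lay in the type I interferon locus on chromosome 9, over 139.1 kb (chr9:21166260-21305394). Type I interferons are secreted antiviral proteins whose genes are silent in most unstimulated cells. Members lay at the starts of IFNA21, IFNA7, IFNA17 and IFNA5 and by the pseudogene IFNWP15. IFNA21 read 0.985, 1.32, 1.21 and 1.15 CPM in vehicle and 2.60, 2.47, 3.21 and 2.58 CPM in sorbitol. IFNA5 read 1.25, 0.977, 1.01 and 2.17 CPM in vehicle and 3.21, 3.58, 2.43 and 2.93 CPM in sorbitol. Vehicle 4 was the highest vehicle library at IFNA5 and came close to the lowest sorbitol one.

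IFNWP15 had the largest ratio of the cluster, 4.09, with 0.328, 0.517, 0.605 and 0.610 CPM in vehicle and 2.52, 2.95, 1.99 and 0.975 CPM in sorbitol. Sorbitol 4 was much the lowest of its group there. IFNA7 read 0.131, 0.632, 0.857 and 0.949 CPM in vehicle and 1.74, 1.35, 1.39 and 1.39 CPM in sorbitol, which in counts is 2, 11, 17 and 14 against 20, 17, 16 and 20. IFNA17 read 0.591, 0.517, 0.504 and 1.02 CPM in vehicle and 1.82, 1.27, 1.82 and 1.32 CPM in sorbitol. In raw counts IFNA7 overlaps between groups, and the separation appears only in CPM. Its call by edgeR was lost without vehicle 1 (log2 fold change 0.77), without sorbitol 1 (0.99) and with a loess offset (0.88), where it was 1.08 in the full fit. Reads from near-identical interferon genes may have been assigned to the wrong copy, and how such reads were treated is not given in the sources used here.

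The interferon span held 12 peaks, and the 5 at gene ends were all members. Of the other 7, 1 was called higher and none lower, and the median log2 fold change was 0.00. On chromosome 9 there were 4 more peaks at ends of interferon genes that were no members. IFNA12P was called higher (11.7 to 15.1 CPM, adjusted p = 0.0431 by edgeR). IFNW1 (2.16 to 2.29 CPM), IFNA6 (1.03 to 1.44 CPM) and IFNWP19 (4.65 to 5.71 CPM) were not called. Among the 9 interferon gene-end peaks, the gained ones thus include 4 alpha interferon genes and leave out IFNA6.

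**Figure D5:**
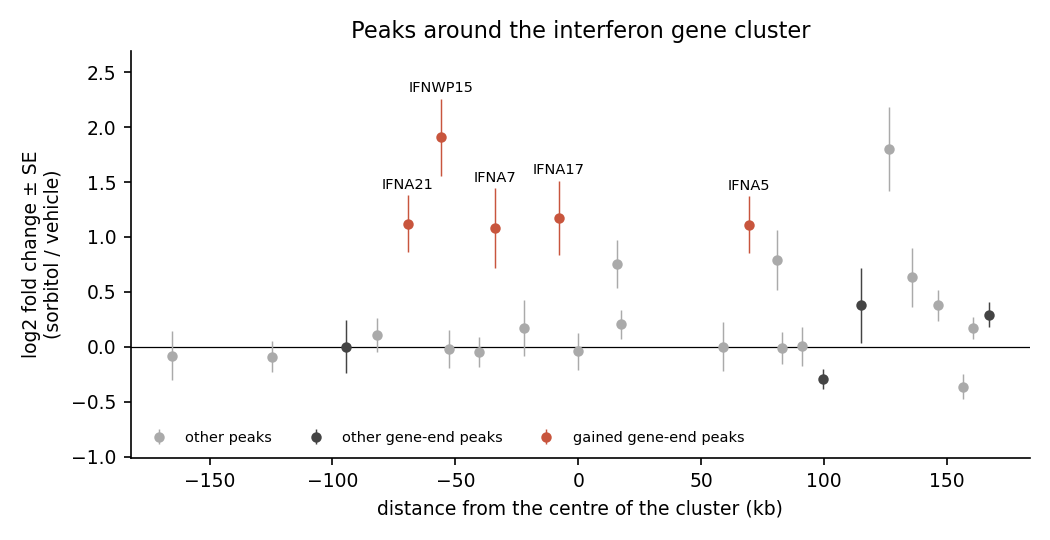
Log2 fold change ± SE (edgeR, sorbitol over vehicle) of peaks within and beside the interferon cluster, against distance from the cluster's centre in kb. The 5 gained gene-end peaks (red) lie between 1.08 and 1.91, and most peaks between them lie near 0.

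The second cluster covered 78.6 kb on chromosome 3 at TRPC1, PCOLCE2 and LOC124909443. TRPC1 is a cation channel and PCOLCE2 a protein that promotes procollagen processing. LOC124909443, an lncRNA, had the strongest member (chr3:142886841-142887456), 808 bp before its start and inside PCOLCE2. It read 10.5, 11.7, 9.53 and 8.13 CPM in vehicle and 21.7, 18.2, 22 and 22.6 CPM in sorbitol. PCOLCE2's own member, 978 bp inside its end, read 0.591, 0.805, 0.756 and 0.542 CPM in vehicle and 2.86, 1.91, 2.69 and 2.44 CPM in sorbitol, a ratio of 3.67. TRPC1 had the weakest ratio of the cluster, with a member 948 bp past its end that went from 1.47 ± 0.242 to 3.04 ± 0.509 CPM. Of the 10 other peaks in the span, 2 were called higher and none lower. Just outside the span, between the peaks at the ends of TRPC1, most peaks were also called higher. Their log2 fold changes were 0.78 to 1.31, and the remaining ones there were not called.

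The third cluster covered 3.08 kb on chromosome 5 (chr5:69899105-69902186) with 3 members at the pseudogene LOC728506 and the start of LOC124900996. At LOC728506 the values were 2.56, 2.41, 1.92 and 4.81 CPM in vehicle and 7.64, 5.57, 7.46 and 7.45 CPM in sorbitol. The members before and at the start of LOC124900996 went from 5.08 ± 1.57 to 10.6 ± 0.686 CPM and from 2.30 ± 0.619 to 5.98 ± 0.521 CPM. Vehicle 4 was the highest vehicle library in the stronger of these and at LOC728506. This stretch lies near segmental duplications, so reads may have been split between copies and the values are uncertain.

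Few genes had a separate member at each end. There were 4, all short (971 to 4624 bp): LOC646652, LOC100419741, LOC124901696 and SFTPA3P. LOC100419741, a pseudogene on chromosome 4, went from 0.938 ± 0.240 to 2.15 ± 1.06 CPM at its left end and from 0.774 ± 0.209 to 1.93 ± 0.443 CPM at the overlapping peak, with sorbitol 1 the highest in both. Without sorbitol 1 the left peak was no longer called higher (log2 fold change 0.69). Of 364 genes with a member at a single end, 76 were at least 5 kb long and had a non-member peak at the opposite end. Of the 83 opposite-end peaks, 8 (9.64%) were called higher and 21 (25.3%) lower. Their median log2 fold change was -0.07. All gene-end peaks had 8.75% higher, 33.1% lower and a median of -0.17, so the opposite ends differed little in the share higher and were less often lower. Where the opposite end was a start, 3 of 51 peaks (5.88%) were higher and 15 (29.4%) lower. Among all gene-end peaks nearest a start, 7.19% were higher and 38.9% lower. The share called higher at opposite ends depended on the scaling of the libraries. It was 18.1% with library totals alone, 22.9% with a loess offset and 1.20% with scaling on contig peaks. In the whole table these scalings gave 26162, 19386 and 8824 higher peaks, instead of 20701. The share of all gene-end peaks is not given for them, so the comparison with all gene-end peaks holds for the main scaling only.

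Peaks around the members were higher more often than peaks at and around gene ends in general. Within 10 kb of a member there were 623 non-member peaks, of which 160 (25.7%) were called higher and 42 (6.74%) lower. The median log2 fold change of these neighbours was 0.21. Among the 41390 tested peaks within 10 kb of any autosomal gene-end peak, 11.1% were higher, 25.6% were lower and the median was -0.12. This set holds the 24411 tested gene-end peaks themselves, of which 33.1% were lower, while the neighbours leave out the members. The neighbours were also weaker, with a median of 43.3 counts against 82.3, and the part of peak strength in this difference was not tested. Split by place, 26 of 174 neighbours at gene ends (14.9%) and 134 of 449 elsewhere (29.8%) were higher. For comparison, 8.75% of all gene-end peaks and 16.2% of all tested autosomal peaks were higher. The latter set includes the gene-end peaks, which the neighbours elsewhere leave out. With scaling on contig peaks 14% of the neighbours were higher, beside 8824 peaks in the whole table instead of 20701.

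Gene ends gained less often than the rest of the genome. The rule without its gene-end condition was met by 4612 of 63895 autosomal peaks inside genes (7.22%) and 2049 of 36378 between genes (5.63%), that is by 5.7% of all autosomal peaks. Non-overlap alone, with every sorbitol value above every vehicle value, was met by 11.1% of gene-end peaks and 17.5% of all autosomal peaks. Peaks inside and between genes were weaker, at medians of 38.0 and 37.5 counts against 163.9. Among peaks averaging up to 62.6 counts, 5.73% were gained at gene ends, 9.74% inside genes and 7.53% between genes. The gained peaks of the 3 places had median ratios of 2.40, 2.38 and 2.38 and median widths of 270, 271 and 270 bp. The same rule chose all of them by their ratio, so this likeness is a description and not a result.

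Chromosomes differed in the share gained. Chromosomes 17 (4 of 1278 gene-end peaks, 0.313%), 19 (5 of 1376, 0.363%), 16 (0.393%) and 22 (0.462%), all rich in genes, had the lowest. Chromosomes 4 (34 of 1005, 3.38%), 13 (3.28%), 18 (3.13%) and 6 (2.99%) had the highest. The median log2 fold change of all gene-end peaks ran along, from -0.52 on chromosome 19 to 0.00 on chromosome 4.

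The gene lists are read beside all gene-end peaks, of which 1.83% were members, 8.75% were called higher and 33.1% lower. On lists of 22 to 59 peaks that share gives about 1 member or none, so the counts of members do not set these lists apart. The osmotic stress genes had no member among 24 gene-end peaks at 16 of 18 genes. These include the transporters of compatible osmolytes and NFAT5, and 3 of the 24 peaks were called higher and 12 lower (median log2 fold change -0.21). Genes of chromatin architecture, such as CTCF and cohesin subunits, had none among 22 peaks, with no peak higher and 9 lower. The immediate early genes had 1 member among 59 peaks, with 12 higher and 16 lower. It lay 317 bp inside the start of EGR2, a zinc finger transcription factor, and read 2.50, 2.87, 2.27 and 3.12 CPM in vehicle and 5.99, 5.65, 6.42 and 7.31 CPM in sorbitol. The groups were well apart.

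YAP target genes had 2 members among 47 peaks, at FJX1 and CCN1, with 8 peaks higher and 14 lower, where the share of all gene-end peaks gives about 1 member. CCN1, a secreted matricellular protein, had its member 338 bp beyond its right end (chr1:85584288-85584618), with 2.82, 2.01, 3.23 and 1.83 CPM in vehicle and 7.38, 5.89, 6.59 and 5.99 CPM in sorbitol. Both YAP target members therefore lay outside the gene body. Tissue-restricted genes of neurons, muscle and germ line had 1 member among 10 peaks, inside the end of ACTN2, the alpha-actinin of muscle sarcomeres (0.945 ± 0.445 to 2.32 ± 0.394 CPM).

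Families picked by symbol are read beside the same 1.83%, and beside 7.05% of pseudogene peaks and 10.2% of weak pseudogene peaks. Keratin symbols had 6 members among 53 peaks (11.3%), all at pseudogenes of KRT8 and KRT18, with 2 of the 6 at KRT18P65. The 53 were picked by symbol and not limited to weak pseudogene peaks, so the 10.2% is not a like comparison. Olfactory receptors had 4 of 56 (7.14%). The olfactory members were OR2B6, OR5AU1, OR6V1 and OR8B10P, all weak: OR5AU1 read 0.480 ± 0.120 CPM in vehicle and 1.73 ± 0.677 in sorbitol. Small nuclear RNA symbols had 7 of 224 (3.13%), all with pseudogene names such as RNU6-695P. By biotype, small nuclear RNA genes had 2 of 76 peaks gained, and the median log2 fold change of the 76 was -0.75. Uncharacterised LOC genes had 166 of 5633 (2.95%), long intergenic RNAs 19 of 951 (2.00%) and antisense genes 17 of 1566 (1.09%). Zinc finger genes, which are kept open in most cells, had 2 of 499 (0.401%), at ZNF395 and ZNF425, and 347 of their peaks were called lower. The symbols of transfer RNAs had none of 363 peaks, of which 272 were called lower and 5 higher. Among ion channels, the members were at CACNG5 (4.01 ± 0.276 to 8.69 ± 1.34 CPM) and across the start of SCN1A, a neuronal sodium channel (1.02 ± 0.200 to 2.24 ± 0.611 CPM).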

How the data were processed

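The deposited table holds the authors' raw counts over 129536 peaks and 8 ATAC-seq libraries (75 bp paired-end, per the labels' protocols). Whether reads or fragments were counted is not stated. The submitters' processing notes list Trim Galore 0.6.10, BWA 0.7.17, SAMtools 1.22, Picard, MACS2 2.2.9.1, bedtools, deepTools 3.5.4 and DESeq2, without parameters, and the build hg38. Table starts count from 0, since the smallest is 0, so printed starts are 1 higher. Replicate numbers were read from the column names.

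Python 3.11.15 applied the CPM rule. A distance is the gap from the peak to a gene's first or last base in RefSeq GRCh38.p14 (59679 genes), and the nearest end gave gene and biotype. Strand came from RefSeq promoter windows, which name 27303 of these genes. The fit used R 4.3.3 and edgeR 4.0.16 (filterByExpr, minimum count 10 and total 15; TMM; quasi-likelihood test; Benjamini-Hochberg over all 129487 tested peaks, threshold 0.05), and was checked on simulated data. Alternatives were other scalings, filters, rule limits, DESeq2 1.42.0, blocks and left-out libraries.

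Named were the 8 members with the highest sorbitol CPM, the 6 with the largest ratio among those averaging at least 50 counts, the 3 largest clusters, the strongest per biotype, members at listed genes, 3 at either side of the threshold (1 of them is not reported here) and 2 genes with members at both ends. The members, lists and rules were chosen with earlier results of these data known, and names outside these rules were chosen after their values were seen. Same-numbered libraries did not deviate together (correlations 0.01, 0.01, -0.06 and -0.24 across peaks).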

Additional observations from a re-analysis of the deposited data

Results flagged for a closer look

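In 9 of 84 groups of 4 libraries, 1 library lay apart from the other 3 by Dixon's criterion, where chance gives about 1 in 20, or 4.2. Sorbitol 1 was high at MIR3668 (6.25 CPM, the others 4.46 to 4.74), at IFNA7 (1.74 CPM, the others 1.35 to 1.39) and at the left peak of LOC100419741 (3.73 CPM, the others 1.53 to 1.73). Vehicle 4 was high at IFNA17 (1.02 CPM, the others 0.504 to 0.591) and at LOC124903287 (2.24 CPM, the others 1.61 to 1.67). Vehicle 2 was high at ACTBP14 (2.36 CPM, the others 2.07 to 2.10) and low at the second peak of LOC124900996 (1.38 CPM, the others 2.57 to 2.69). Sorbitol 2 was low at LOC728506 (5.57 CPM, the others 7.45 to 7.64), and sorbitol 3 was low at ATP12A (5.81 CPM, the others 7.90 to 8.12).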

How the results depend on the processing

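The 446 members became 1216 at 1.5 times, 68 at 3 times, 279 within 500 bp, 740 within 2 kb and 36 with at least 50 counts on average. The protein-coding share was then 38.0% at 1.5 times, 16.2% at 3 times and 50% with at least 50 counts. The share of gene-end peaks near a member that were members was 9.57% at 1.5 times, 2.99% at 3 times, 15% within 10 kb, 2.99% within 1 Mb and 7.61% without vehicle 4 and sorbitol 4, an alternative added after seeing the data. Of all 24414 gene-end peaks, 1216 were members at 1.5 times and only 68 at 3 times. Where the number of members changed, these shares therefore cannot be compared with each other directly. Scaling on contig peaks gave 8824 peaks higher and 5078 lower, 14% of neighbours and 1.20% of opposite ends higher. At least 50 counts gave 10312 higher, 11094 lower, 36 members called and 19.1% of opposite ends. Opposite ends reached 18.1% with library totals alone and 22.9% with a loess offset, where the members' median log2 fold change was 1.04. The causes of these shifts were not tested. The filter of at least 50 counts left 58274 tested peaks instead of 129487. Library totals alone also moved the split of calls, to 26162 higher and 12650 lower.

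Leaving out 1 library at a time gave 16679 to 21135 peaks higher, 13876 to 17523 lower, 420 to 443 members called, median log2 fold changes of 1.15 to 1.24, 21.2% to 25.7% of neighbours, 7.23% to 9.64% of opposite ends, 436 to 604 members, protein-coding shares of 27.2% to 30.0% and shares near a member of 5.80% to 7.09%. With the replicate number as a block, 18822 peaks were higher, 15622 lower and 442 members called, although the numbers do not pair the libraries. For 38 named peaks, 658 of 666 alternative values kept direction and call, 5 lost the call, 3 gained it and none reversed. Most members had too few counts per library for single values to be firm.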
